A study of Arabidopsis thaliana with 8 samples.

Results

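The WRKY proteins are a plant-specific family of transcription factors, and their genes were followed here in mature rosette leaves of the *kaku4* mutant and of WT *Arabidopsis thaliana*. Members were chosen by locus, from a list of 60 *WRKY* genes that leaves out *WRKY52* and a few others. Of the 60 listed genes, 58 had a value among the 23050 loci with values, while *WRKY10* (AT1G55600) and *WRKY34* (AT4G26440) had none. A further pair, *WRKY9* (AT1G68150) and *WRKY49* (AT5G43290), lay under the minimum mean level of 0.1 FPKM and were not tested. That leaves 56 tested members among 20618 tested genes.

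Each WRKY protein carries a DNA-binding domain of about the same build, with a conserved heptapeptide that gives the family its name, followed by a zinc finger. The domain reads the W-box, a short element in the promoters of many defence and senescence genes, and many *WRKY* promoters hold W-boxes themselves, so that members can act on each other. Members of group I mostly have a pair of domains, those of groups II and III a single domain, and group II falls into subgroups IIa to IIe. In leaves the family is best known for its part in immunity, in salicylic acid signalling and in the control of leaf ageing, where some members promote senescence and others delay it.

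RNA-seq libraries were made from 6-week-old leaves, which the study describes as rosette leaves, of WT plants (genotype label col) and of plants with the genotype label *kaku4*-2, with 3 libraries per genotype that the study calls independent biological replicates. KAKU4 is a component of the plant nuclear lamina at the inner nuclear envelope. The study describes the mutant as a single homozygous T-DNA insertion line, and all results below rest on that line. The study also made CRISPR/Cas9 mutants and complementation lines, which are not among these libraries. By qRT-PCR it reports *WRKY33* among selected genes higher in *kaku4*, most of which returned nearly to WT level on complementation. Expression is given as FPKM, a fragment number that the authors scaled with Cufflinks to the length of the transcript and to the size of the library.

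The labels were checked against the mutated gene. *KAKU4* (AT4G31430) had 6.41, 5.45 and 5.71 FPKM in WT libraries 1, 2 and 3 and 0.739, 1.26 and 0.943 FPKM in the *kaku4* libraries. The difference on the log2 scale was -2.49 (SE 0.22, adjusted p = 1.9e-04), so the labels and the values go together. The summed FPKM of a library was 1412227 to 1559944 in WT and 953041 to 1188694 in *kaku4*, and the number of fragments behind each value is unknown, so no counting interval is given. The read totals that the study states were not used here. Replicate 1 of both genotypes stood apart by its chloroplast transcripts, which summed to 44363 FPKM (WT) and 30587 FPKM (*kaku4*), while the remaining 4 libraries had 499 to 945. Values without that replicate number are given for called members that lose the call, and for some other genes. The tissue label was checked with marker genes. The 5 green leaf markers summed to 27138 to 32591 FPKM in WT and 28696 to 30411 in *kaku4*, with 0 of 5 called by limma (1 at an unadjusted p under 0.05 with a higher level in *kaku4*, *RCA*, and 2 with a lower level, *CA1* and *LHCB3*). Root hair and seed markers summed to 0.253 FPKM at most in any library. The 4 floral organ markers summed to 1.53 to 2.04 FPKM in WT and 0.333 to 0.508 in *kaku4*, with 3 of 4 called lower. Of all tested genes, 16.4% were called higher and 11.5% lower. The 5 anther markers summed to 1.71 to 6.7 FPKM in WT and 1.28 to 2.02 in *kaku4*. With replicates 2 and 3 only, the floral marker *SEP3* was at -1.64 and not called (limma adjusted p = 0.0641). Of the 2 anther genes tested, *A9* had 0.568, 3.04 and 5.81 FPKM in WT and was listed at 0 in each *kaku4* library, while *LAP6* went the other way, with 0.82 to 1.11 FPKM in WT and 1.28 to 1.98 in *kaku4*. The part of these low floral and anther levels in any *WRKY* value was not tested. As the RNA came from whole leaves, fewer cells of a type and less RNA per cell cannot be told apart.

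The heptapeptide is shown first because it defines the family and separates a small set of members. In the coding sequences of the RefSeq annotation of TAIR10.1, 72 signatures of 21 bases were found in the 60 members, in 57 different spellings. A pair of signatures was found in 12 members and a single signature in 48, among them *WRKY10* and *WRKY19*, which are listed in group I. The sixth codon, in capitals, encoded glutamine in 70 signatures and lysine in 2, those of *WRKY50* and *WRKY51*, subgroup IIc genes with roles in the repression of jasmonate signalling by salicylic acid. The coding strand is written 5′ to 3′.
*WRKY75*: tggaggaaatatggcCAAaag
*WRKY41*: tggagaaaatatggcCAGaaa
*WRKY33*, first domain: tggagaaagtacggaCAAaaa
*WRKY33*, second domain: tggagaaaatacggcCAGaaa
*WRKY31*: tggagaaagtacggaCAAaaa
*WRKY50*: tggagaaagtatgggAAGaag
*WRKY51*: tggaggaagtatggcAAGaaa
The first signature of *WRKY33*, a group I gene, was spelled as that of *WRKY31*, a subgroup IIb gene.

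The W-box was searched as TTGACC or TTGACT on both strands (so that it reads GGTCAA or AGTCAA on the other) in the 250 bases before and the first 50 bases after each annotated start. At least 1 match was found in 21 of the 60 member promoters (35%), and in 8883 of the 27443 promoters of nuclear protein-coding genes (32.4%). A window with 2 or more matches was found for 11 members (18.3%) and for 2112 of all promoters (7.7%). The promoters of *WRKY75*, *WRKY33* and *WRKY41* are shown because these genes, described below, were among the 4 called members of lowest adjusted p. All 3 hold a match, which not every called member does. The promoters of *WRKY1*, the other of these 4 members, and of *WRKY31*, the member of largest fold change, hold none. Sequences are from RefSeq, TAIR10.1, 5′ to 3′ on the strand of the gene, with W-box matches in capitals.
*WRKY33*, chr2:16107985-16108284, plus strand: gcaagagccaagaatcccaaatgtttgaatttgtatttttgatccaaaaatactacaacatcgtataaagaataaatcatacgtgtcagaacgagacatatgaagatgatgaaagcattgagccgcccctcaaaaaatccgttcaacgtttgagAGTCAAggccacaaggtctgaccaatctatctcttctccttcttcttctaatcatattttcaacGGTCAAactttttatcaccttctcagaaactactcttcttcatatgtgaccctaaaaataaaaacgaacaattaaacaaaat
*WRKY41*, chr4:6758848-6759147, plus strand: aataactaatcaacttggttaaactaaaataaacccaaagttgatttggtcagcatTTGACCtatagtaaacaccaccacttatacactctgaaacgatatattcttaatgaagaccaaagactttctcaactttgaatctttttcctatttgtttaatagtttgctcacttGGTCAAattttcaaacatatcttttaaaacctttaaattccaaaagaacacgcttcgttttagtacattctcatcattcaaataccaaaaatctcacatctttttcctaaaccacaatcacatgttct
*WRKY75*, chr5:4151152-4151451, minus strand: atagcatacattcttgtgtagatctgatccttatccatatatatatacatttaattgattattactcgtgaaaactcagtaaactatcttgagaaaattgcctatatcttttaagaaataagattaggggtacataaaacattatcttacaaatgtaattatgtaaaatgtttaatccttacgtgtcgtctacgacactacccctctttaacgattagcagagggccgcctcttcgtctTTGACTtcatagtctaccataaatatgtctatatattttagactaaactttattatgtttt
The matches began, counted from the first base of the transcript, 96 and 32 bases before the start of *WRKY33*, 194 and 78 bases before that of *WRKY41* and 11 bases before that of *WRKY75*. A match is a description of the letters and not a bound site.

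Across the family, more members were higher than lower in the *kaku4* mutant. With limma on log2(FPKM + 0.1), a gene was called where its log2 fold change reached 1 in either direction with a p, adjusted by Benjamini and Hochberg, no higher than 0.05. By this rule 12 of the 56 tested members (21.4%) were upregulated, where 16.4% of all tested genes were, and 1 member (1.79%) was downregulated, where 11.5% of all tested genes were. By the adjusted p alone, 27 members were higher and 4 were lower, against 28.6% and 28.3% of all genes. All 3 *kaku4* values lay above all 3 WT values in 31 members (55.4%), against 33.5% of all genes, and below them in 5 members (8.93%), against 31.3%. The median log2 fold change of the 56 members was 0.51 and that of all tested genes 0.00, and 43 members had a value above 0.

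Transcript length moved with the fold change across all genes. Over 20464 genes the Spearman correlation of transcript length and log2 fold change was 0.59, given as a description since genes are not independent, and over the 56 members it was 0.22. Cut into 5 classes of near equal size, all genes had a median of -0.82 in the shortest class (102 to 1079 bases), then -0.46, -0.05 and 0.33, and 0.98 in the longest (2462 to 16593 bases). The members had a median length of 1655 bases against 1688 for all genes, and their medians in the same classes from short to long were 0.56, 0.35, 0.34, 0.82 and 0.89, over 4, 18, 13, 17 and 4 members. The medians of members thus lay above those of all genes in the 4 shorter classes, and slightly below in the longest. With a smooth length trend subtracted in each library, 7.77% of all genes were called higher and 5.21% lower. Of the members, 14 (25%) were then called higher and 2 lower, with a median of 0.62 against -0.01 for all genes. Of these 14 members, 10 were among the 12 above, *WRKY16* and *WRKY20* dropped out, and *WRKY40*, *WRKY45*, *WRKY51* and *WRKY70* were added. The second gene called lower was *WRKY39*.

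**Figure D1:**
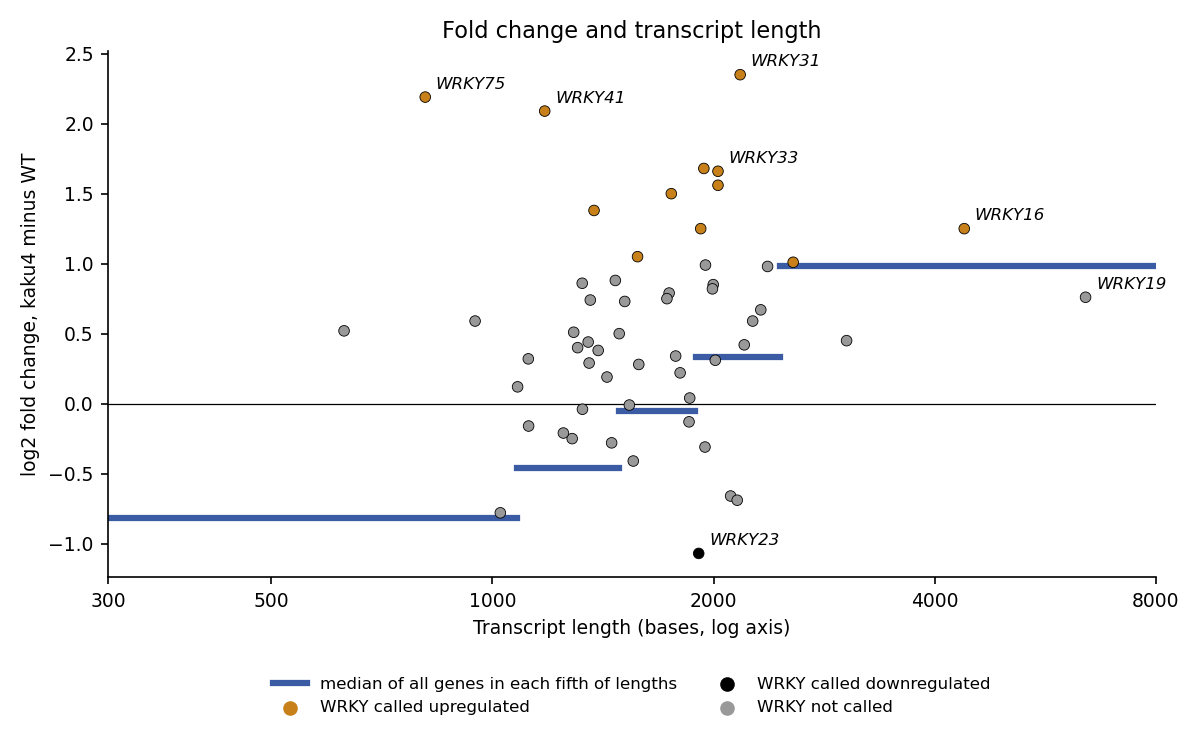
Log2 fold change (*kaku4* minus WT, log2(FPKM + 0.1) scale) of 56 *WRKY* genes against transcript length on a log axis, one point per gene, with the median of all genes in each of 5 length classes as bars (the outer bars are cut at the axis limits). The bars climb from -0.82 to 0.98, and *WRKY75* and *WRKY41* lie far above the bar of their length while *WRKY16*, at 4389 bases, lies close to it.

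**Figure D2:**
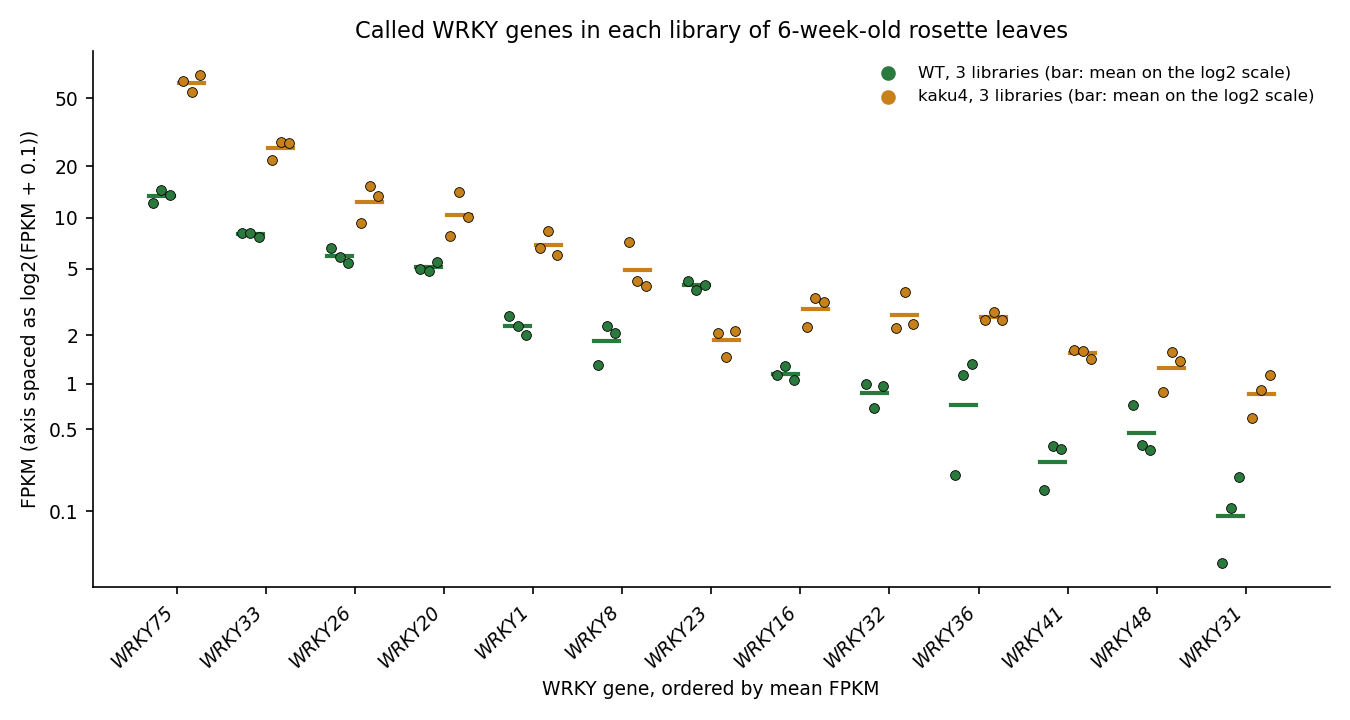
FPKM of the 13 called *WRKY* genes in each of 6 libraries, with the axis spaced as log2(FPKM + 0.1), points for libraries and bars for the genotype mean on that scale. In each of the 13 genes the 3 *kaku4* libraries lie apart from the 3 WT libraries, and *WRKY23* is the gene in which they lie below.

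Among the 9 members with known roles in leaf senescence, *WRKY75* was the gene called. *WRKY75* (AT5G13080, chromosome 5, 4149738 to 4151201 on TAIR10.1, minus strand, 2 exons), which promotes leaf senescence and also responds to phosphate shortage, had 12.2, 14.5 and 13.6 FPKM in WT libraries 1, 2 and 3 and 63.1, 54.5 and 68.0 FPKM in the *kaku4* libraries. The genotypes were far apart, with each *kaku4* library more than 3 times as high as any WT library. The means were 13.4 ± 1.14 and 61.9 ± 6.8 FPKM (SD, n = 3), a ratio of 4.61, and the log2 fold change was 2.19 (SE 0.13, adjusted p = 3.7e-05). With the length trend removed it was 2.99. The gene moved from rank 9 among the members in WT to rank 3 in *kaku4*.

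The other senescence members were not called as deposited. Still, every *kaku4* library lay above every WT library in 7 of the 9, *WRKY75* included, against 33.5% of all genes. *WRKY70*, a node between salicylic acid and jasmonate signalling that delays senescence, had 61.6, 62.7 and 58.6 FPKM in WT and 100, 131 and 107 FPKM in *kaku4*. The log2 fold change, 0.88 (SE 0.13, adjusted p = 0.00106), missed the fold threshold. It passed with the length trend removed, at 1.10. *WRKY54*, its close relative and partner in delaying senescence, had 42.5, 47.2 and 48.5 FPKM in WT and 54.5, 48.9 and 54.5 FPKM in *kaku4*, with a log2 fold change of 0.19 (95% interval -0.08 to 0.46, adjusted p = 0.194). The lowest *kaku4* library of *WRKY54* thus lay just above its highest WT library. With the length trend removed *WRKY54* was at 0.45 (limma adjusted p = 0.0074), short of the fold threshold. *WRKY53*, an activator of senescence, had 13.5, 11.3 and 11.7 FPKM in WT and 23.1, 21.2 and 16.7 FPKM in *kaku4* (log2 fold change 0.73, adjusted p = 0.00484). Its antisense neighbour *3xHMG-box2* overlaps it by 341 bases and had 1.56, 1.91 and 1.91 FPKM in WT and 4.3, 6.51 and 5.4 FPKM in *kaku4*, so reads from the shared bases cannot be told apart without strand. *WRKY45*, another activator of age-triggered senescence, had 5.88, 5.9 and 6.59 FPKM in WT and 8.72, 9.47 and 13.1 FPKM in *kaku4*. This was a log2 difference of 0.74 (adjusted p = 0.00796) or 1.07 with the length trend removed, where it was called. *WRKY6*, an early senescence factor, was at 0.67 (adjusted p = 0.00396), and *WRKY57*, which represses jasmonate-induced senescence, at 0.82 (adjusted p = 0.0497). *WRKY55* was at 0.32 and *WRKY22* at -0.04, both with overlapping genotypes.

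Of the 14 members with roles in salicylic acid signalling and defence, 4 were upregulated and 0 were downregulated, and the median was 0.67, beside 16.4% higher and 11.5% lower of all genes. At an unadjusted p under 0.05 none of these 14 was lower. With the length trend removed 6 were called higher, beside 7.77% of all genes. *WRKY33* (AT2G38470, chromosome 2, 16108235 to 16110766, plus strand, 5 exons), which directs camalexin synthesis and resistance to necrotrophic fungi, had 8.12, 8.19 and 7.74 FPKM in WT and 21.8, 27.8 and 27.4 FPKM in *kaku4*. The spread within each genotype was small beside the distance between them, with means of 8.02 ± 0.243 and 25.7 ± 3.37 FPKM (SD, n = 3). The log2 fold change was 1.66 (SE 0.14, adjusted p = 1.6e-04), and 1.43 with the length trend removed. It shares 26 bases with AT2G38480 on the other strand, which had 42.8, 45.6 and 46.7 FPKM in WT and 19.5, 14 and 17.6 FPKM in *kaku4*, the opposite direction, and 272 bases with a long non-coding RNA that had no value.

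*WRKY41* (AT4G11070, chromosome 4, 6759098 to 6760794, plus strand, 3 exons), a group III gene of defence against *Pseudomonas*, had 0.164, 0.381 and 0.359 FPKM in WT and 1.63, 1.6 and 1.43 FPKM in *kaku4*. All WT libraries were under 0.5 FPKM and all *kaku4* libraries above 1, with a log2 difference of 2.09 (SE 0.32, adjusted p = 0.00105). At these low levels the pseudocount matters, and with a pseudocount of 1 the value was 0.98 and not called. An overlap of 517 bases with *3xHMG-box1* on the opposite strand limits this value, since that gene had 1, 0.298 and 0.294 FPKM in WT and 0.745, 1.18 and 0.965 FPKM in *kaku4* (log2 fold change 0.91, adjusted p = 0.107). *WRKY8* (AT5G46350), which acts in antiviral defence, had 1.31, 2.28 and 2.08 FPKM in WT and 7.24, 4.26 and 3.95 FPKM in *kaku4*. The resulting log2 difference, 1.38 (SE 0.29, adjusted p = 0.00431), leaned on replicate 1, the lowest in WT and the highest in *kaku4*, and with replicates 2 and 3 only it was 0.88 and no longer called. *WRKY48* (AT5G49520), a repressor of basal defence, had 0.728, 0.387 and 0.353 FPKM in WT and 0.89, 1.57 and 1.4 FPKM in *kaku4*, with a log2 difference of 1.25 (SE 0.34, adjusted p = 0.0141). The *WRKY48* call was lost without WT replicate 2 or 3 or *kaku4* replicate 2 or 3, at log2 differences of 1.14, 1.09, 1.10 and 1.18 (limma adjusted p = 0.0525, 0.0533, 0.0551 and 0.0567).

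The 3 genes of subgroup IIa, which act together as repressors of basal defence, had similar values and none was called. *WRKY18* had 10.2, 6.74 and 6.88 FPKM in WT and 13, 14.9 and 12.8 FPKM in *kaku4* (log2 fold change 0.79, adjusted p = 0.00692). *WRKY40* had 3.36, 4.05 and 3.04 FPKM in WT and 6.88, 5.69 and 6.61 FPKM in *kaku4* (0.86, adjusted p = 0.0033). *WRKY60* had 5.98, 6.69 and 5.26 FPKM in WT and 8.61, 8.2 and 8.52 FPKM in *kaku4* (0.50, adjusted p = 0.0182). In all 3 genes each *kaku4* library was above each WT library, which held for 33.5% of all genes. The fold changes were below the threshold. *WRKY40* was called with the length trend removed, at 1.23. *WRKY18* was called with replicates 2 and 3 only, at 1.01, and with a GC trend removed, at 1.48.

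The lysine-type pair *WRKY50* and *WRKY51* differed mainly in level. *WRKY51* had 41, 43.9 and 32.8 FPKM in WT and 72.2, 43.2 and 64.8 FPKM in *kaku4*, so that *kaku4* library 2 fell within the WT range (log2 fold change 0.59, adjusted p = 0.0377). With the length trend removed the value was 1.30 and called, its transcript of 947 bases being among the shortest of the family. *WRKY50* had 8.83, 7.65 and 9.01 FPKM in WT and 11, 9.3 and 7.69 FPKM in *kaku4* (0.12, 95% interval -0.26 to 0.51, adjusted p = 0.555). With the length trend removed *WRKY50* was at 0.73 (limma adjusted p = 0.00781), short of the fold threshold. Other defence members were *WRKY11*, a negative regulator of basal resistance, at 0.75, *WRKY38*, a repressor of basal defence, at 0.40, *WRKY46* at 0.29, *WRKY17* at -0.01 and *WRKY28*, an activator of salicylic acid synthesis, at -0.28. With the length trend removed these genes were at 0.76, 0.78, 0.62, 0.15 and -0.04 in the same order, and none was called.

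Called members without a senescence or defence role on the list included several of low level. *WRKY1* (AT2G04880, chromosome 2, 1717833 to 1720526, plus strand, 4 exons), also named *ZAP1*, had 2.63, 2.27 and 2.02 FPKM in WT and 6.67, 8.33 and 6.06 FPKM in *kaku4*, a clear gap with a log2 difference of 1.56 (SE 0.19, adjusted p = 4.8e-04). It shares 166 bases with *SCL21* on the other strand, which was at 1.15 to 1.71 FPKM in WT and 2.13 to 2.86 in *kaku4*. *WRKY32* (AT4G30935), another group I gene, had 0.994, 0.696 and 0.972 FPKM in WT and 2.22, 3.65 and 2.33 FPKM in *kaku4* (log2 fold change 1.50, SE 0.26, adjusted p = 0.00193), and was not called with a pseudocount of 1, at 0.97.

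*WRKY31* (AT4G22070) was near the detection limit in WT, with 0, 0.109 and 0.214 FPKM, and had 0.599, 0.906 and 1.13 FPKM in *kaku4*. The fitted value, 2.35 (SE 0.49, adjusted p = 0.00419), depends on the pseudocount and was 0.76 with a pseudocount of 1. *WRKY36* (AT1G69810), a partner of the UV-B photoreceptor that represses *HY5*, had 0.224, 1.14 and 1.33 FPKM in WT and 2.47, 2.76 and 2.48 FPKM in *kaku4*. WT library 1 was far below the other WT libraries, and the log2 fold change of 1.68 (SE 0.51, adjusted p = 0.0215) became 1.00 without that library and 1.03 with replicates 2 and 3 only. Without *kaku4* replicate 1, 2 or 3 *WRKY36* was at 1.71, 1.63 and 1.71 and was not called (limma adjusted p = 0.0515, 0.075 and 0.0661). *WRKY26* (AT5G07100), which supports heat tolerance with *WRKY25* and *WRKY33*, had 6.69, 5.85 and 5.46 FPKM in WT and 9.35, 15.4 and 13.4 FPKM in *kaku4* (1.05, SE 0.20, adjusted p = 0.00278). Its log2 difference was under the fold threshold without WT replicate 3, *kaku4* replicate 2 or *kaku4* replicate 3, at 0.98, 0.90 and 0.99.

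A pair of called members did not keep the call with the length trend removed. *WRKY16* (AT5G45050), in which a WRKY domain is fused to a TIR-type immune receptor, has a transcript of 4389 bases and had 1.14, 1.29 and 1.06 FPKM in WT and 2.26, 3.37 and 3.17 FPKM in *kaku4*. The log2 difference was 1.25 (SE 0.22, adjusted p = 0.00202) and 0.05 with the length trend removed. *WRKY20* (AT4G26640), at 2567 bases, had 4.97, 4.87 and 5.5 FPKM in WT and 7.88, 14.1 and 10.1 FPKM in *kaku4*, with 1.01 (SE 0.21, adjusted p = 0.00415) and 0.41 after removal. Without WT replicate 1, WT replicate 2 or *kaku4* replicate 2 *WRKY20* was at 0.99, 0.98 and 0.80, under the fold threshold. The other receptor fusion, *WRKY19*, has the longest transcript of the family (6420 bases), and its value of 0.76 (adjusted p = 0.0711) turned to -0.73 (adjusted p = 0.0282) with the trend removed.

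*WRKY23* (AT2G47260, chromosome 2, 19404802 to 19407098, minus strand, 3 exons), which acts in auxin-dependent development, was the member called downregulated. It had 4.26, 3.75 and 4.04 FPKM in WT and 2.07, 1.47 and 2.13 FPKM in *kaku4*. The genotypes were well apart, with means of 4.02 ± 0.258 and 1.89 ± 0.369 FPKM (SD, n = 3), a log2 difference of -1.07 (SE 0.20, adjusted p = 0.00254) and -1.21 with the length trend removed. It was not called at -0.90 without *kaku4* replicate 2, the lowest library, at -0.62 with a GC trend removed, at -0.57 with organelle genes left out and the libraries rescaled, or at -0.80 with a pseudocount of 1. By the adjusted p alone *WRKY12*, *WRKY21* and *WRKY39* were also lower, at -0.78, -0.66 and -0.69. *WRKY12*, which promotes flowering in short days and restrains secondary walls in the pith, had 10.2, 8.48 and 6.64 FPKM in WT and 5.46, 3.18 and 6.29 FPKM in *kaku4*, and its value was -0.13 with the length trend removed. Its relative *WRKY13* had 0.851, 1.41 and 1.54 FPKM in WT and 1.57, 1.77 and 1.77 FPKM in *kaku4* (0.44, adjusted p = 0.181).

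With a pseudocount of 1, *WRKY75*, *WRKY33*, *WRKY1* and *WRKY8* were the 4 members called higher, beside 1743 of 20618 tested genes. *WRKY48*, *WRKY16*, *WRKY20*, *WRKY26* and *WRKY36* were then at 0.61, 0.85, 0.90, 0.95 and 0.97. With quantile normalization *WRKY16*, *WRKY20*, *WRKY26* and *WRKY48* were under the fold threshold, at 0.87, 0.89, 0.96 and 0.94, and *WRKY36* had an adjusted p of 0.0671. With libraries centred *WRKY20* and *WRKY26* were at 0.82 and 0.85, and with a GC trend removed *WRKY16* and *WRKY20* were at 0.96 and 0.61.

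Values just inside the fold threshold were 1.01 for *WRKY20* and 1.05 for *WRKY26*. Just outside it were *WRKY47* at 0.99, with 6.48, 8.01 and 9.14 FPKM in WT and 13.6, 16.3 and 17.1 FPKM in *kaku4* (adjusted p = 0.00164), and *WRKY42*, a repressor of the phosphate exporter gene *PHO1*, at 0.98 (adjusted p = 0.15). *WRKY42* was listed at 0 in WT library 1 and had 0.199 and 0.218 FPKM in the other WT libraries and 0.343, 0.363 and 0.253 FPKM in *kaku4*.

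By structure, subgroups IIb and IIa and group I lay highest as deposited. Of 12 tested group I members 5 were upregulated and 0 downregulated, with a median of 0.67, and of 6 subgroup IIb members 2 were upregulated, with a median of 0.98, where 16.4% of all genes were called higher and 11.5% lower. The median of group I fell to 0.24 with the length trend removed, its median transcript length being 2028 bases. Group III, with a median length of 1330 bases, moved the other way, from 0.46 to 0.90 over 8 members. Of these 1 was called higher before and 2 after removal, beside 16.4% and 7.77% of all genes. Subgroup IIc had 3 members upregulated and 1 downregulated of 13, with a median of 0.52, and subgroup IIa had 0 called of 3 by limma (all 3 at an unadjusted p under 0.05, short of the fold threshold) with a median of 0.79. Subgroup IIe had 1 called of 8 and a median of 0.12.

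Subgroup IId, whose proteins bind calmodulin, was the group with a median below 0, at -0.28 over 6 members and -0.16 with the length trend removed. *WRKY11* was its member above 0, and *WRKY17*, *WRKY15*, *WRKY7*, *WRKY21* and *WRKY39* were at -0.01, -0.25, -0.31, -0.66 and -0.69. None of the 6 was called by limma as deposited (3 had an unadjusted p under 0.05), and *WRKY39*, which has a role in heat tolerance, was called lower at -1.01 with the length trend removed but was at -0.16 (adjusted p = 0.308) with a GC trend removed and at -0.18 (adjusted p = 0.418) with organelle genes left out. With organelle genes left out and the libraries rescaled, *WRKY15*, *WRKY17* and *WRKY7* were above 0. Differences between structural groups were not tested.

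**Figure D3:**
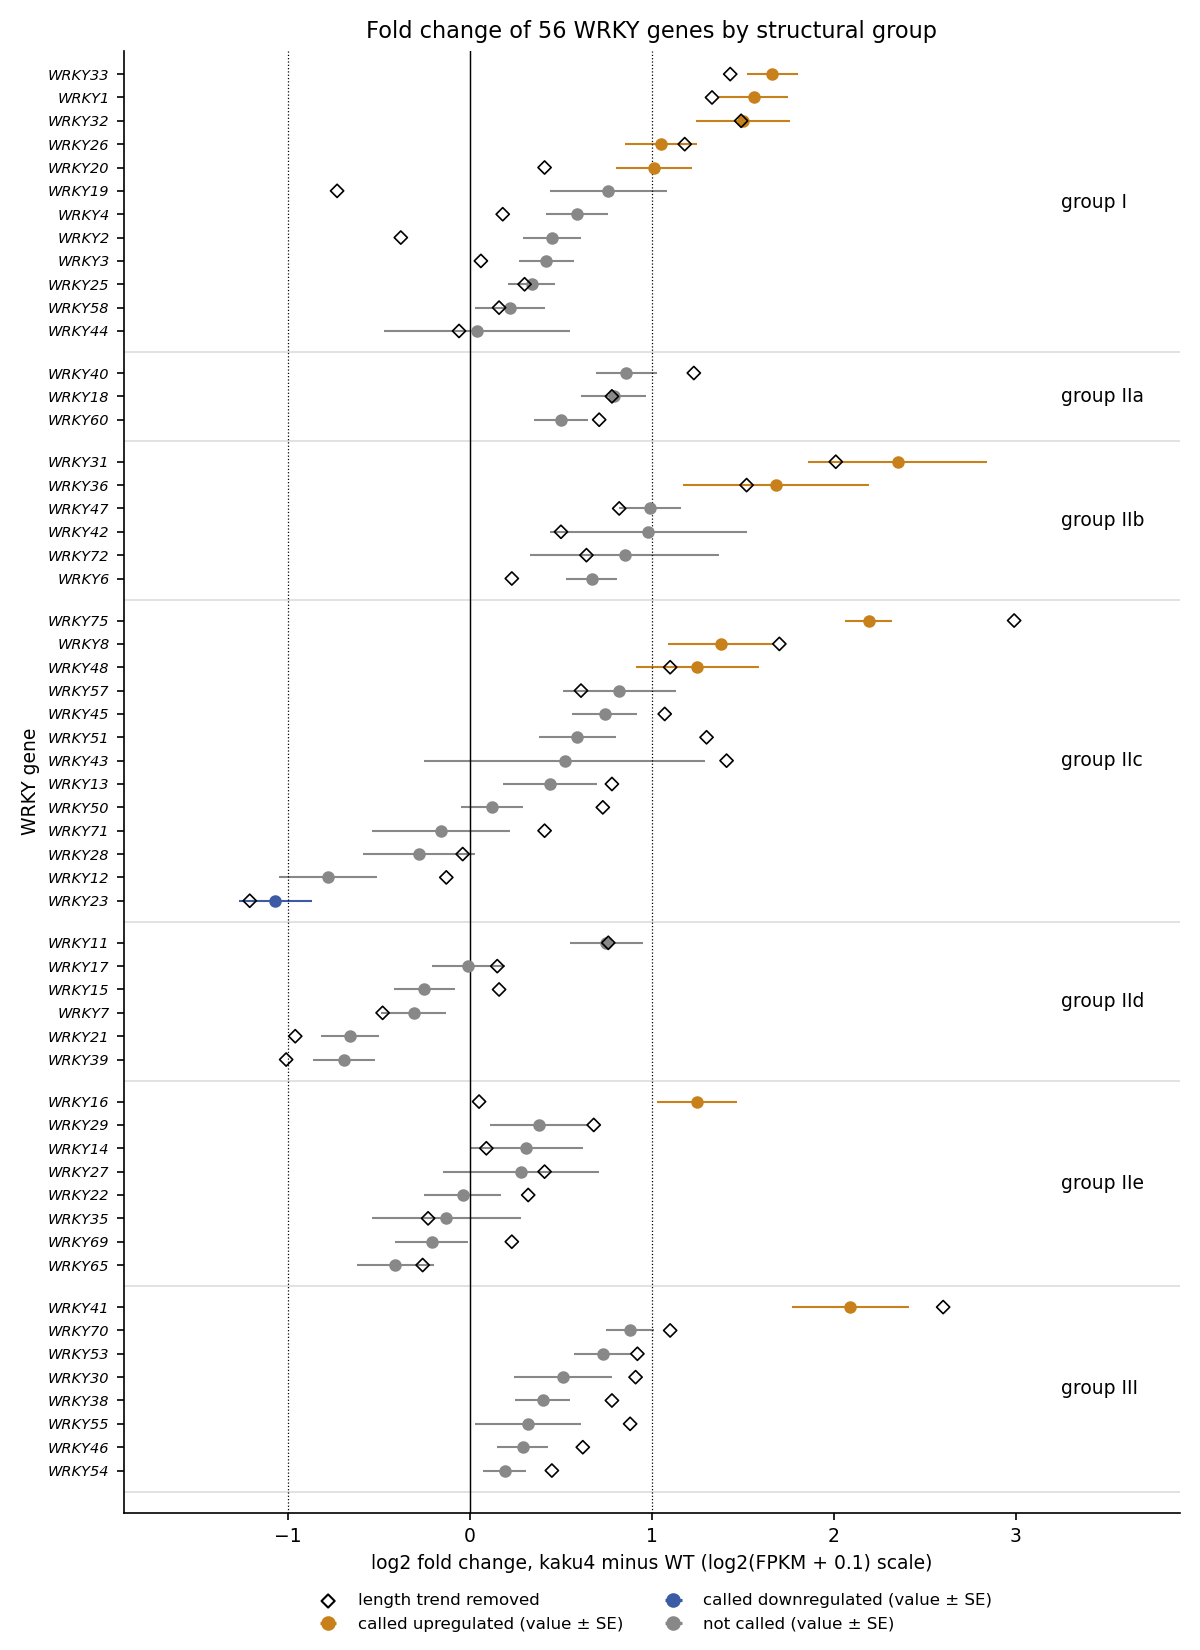
Log2 fold change (*kaku4* minus WT) of the 56 tested *WRKY* genes by structural group, with filled points and bars for the value ± SE as deposited, open diamonds for the value with the length trend removed, and dotted lines at a log2 fold change of 1 in either direction. Groups I, IIa, IIb and III lie above 0 throughout as deposited, 5 of 6 subgroup IId members lie below, and the diamonds of *WRKY16* and *WRKY19* fall furthest to the left of their points.

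The family was unevenly expressed. The 5 members of highest mean, *WRKY15*, *WRKY70*, *WRKY51*, *WRKY54* and *WRKY75*, made up 52.5% of its summed FPKM. *WRKY15*, a regulator of growth under oxidative and salt stress, led in both genotypes, with 119, 160 and 178 FPKM in WT and 118, 123 and 140 FPKM in *kaku4*. These ranges overlapped (log2 fold change -0.25, 95% interval -0.64 to 0.14, adjusted p = 0.241). Next in the order of overall means were *WRKY70* at 86.9 FPKM, *WRKY51* at 49.6, *WRKY54* at 49.3 and *WRKY75* at 37.6. *WRKY51* and *WRKY54* had overlapping ranges in both genotypes. At the other end, 10 members had a mean of at least 0.1 and under 1 FPKM.

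Summed over the 58 members, the family stood at 551, 615 and 613 FPKM in WT and 764, 780 and 827 FPKM in *kaku4*, without overlap. *WRKY70* supplied 26.3% and *WRKY75* 24.6% of the net difference of 197 FPKM between the means, while *WRKY15* went the other way by 25.5 FPKM. Without *WRKY75* and *WRKY70* the sum was 477 to 541 FPKM in WT and 595 to 652 in *kaku4*, still without overlap. Since the summed FPKM of all genes was lower in *kaku4*, the share of the family differed more, with 0.0353 to 0.0436% in WT and 0.0643 to 0.0819% in *kaku4*. The number of members at 1 FPKM or more was 43, 43 and 44 in WT and 45, 49 and 50 in *kaku4*.

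Close relatives were compared with each other. In 18 pairs or overlapping trios of close relatives, coding sequence identity was 48.1 to 76.2% and the longest run of shared bases was 36, shorter than the 150-base reads of these libraries. Both genes were upregulated in 0 pairs, a single gene in 5 and neither in 13. Within a library the ratio of a pair does not depend on library scaling. It could be formed in 15 pairs, and in 8 the ratio had no overlap between genotypes. No such share was computed for other gene pairs, so nothing particular to these pairs is read from the count. With 3 libraries on each side the smallest two-sided p of an exact permutation test is 0.1, and no p is given for a ratio.

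*WRKY75* was 2.08, 2.45 and 2.07 times as high as *WRKY45* in WT and 7.23, 5.76 and 5.2 times as high in *kaku4*. *WRKY33* was 0.394, 0.361 and 0.416 times as high as *WRKY25* in WT and 0.858, 1.13 and 0.972 times in *kaku4*, so that *WRKY33* reached the level of its relative. *WRKY25* itself had 20.6, 22.7 and 18.6 FPKM in WT and 25.4, 24.6 and 28.2 FPKM in *kaku4* (log2 fold change 0.34, adjusted p = 0.0515). *WRKY70* was 1.45, 1.33 and 1.21 times as high as *WRKY54* in WT and 1.84, 2.68 and 1.97 times in *kaku4*. *WRKY11* was 0.93, 0.812 and 1.02 times as high as *WRKY17* in WT and 1.62, 1.66 and 1.42 times in *kaku4*. These last genes are the most alike of the pairs, at 76.2% identity, and the ratio passed from about even to clearly in favour of *WRKY11*.

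Some other pairs kept their ratio within the spread of the libraries. *WRKY40* was 0.33, 0.601 and 0.442 times as high as *WRKY18* in WT and 0.529, 0.382 and 0.518 times in *kaku4*. *WRKY4* was 0.899, 1.49 and 1.4 times as high as *WRKY3* in WT and 1.25, 1.53 and 1.39 times in *kaku4*. The ranges of both ratios overlapped. *WRKY31* and *WRKY42*, at 74.8% identity, could not be given a ratio since WT library 1 was listed at 0 for both. Among the remaining relatives, *WRKY29*, an output of the flagellin-triggered kinase cascade, had 1.05, 1.29 and 2.07 FPKM in WT and 1.73, 2.03 and 1.88 FPKM in *kaku4*, and *WRKY22* had 3.91, 5.61 and 6.69 FPKM in WT and 5.06, 4.71 and 5.64 FPKM in *kaku4*. These genotypes overlapped, as did those of the flowering regulator *WRKY71*, with 1.4, 0.463 and 0.762 FPKM in WT and 0.806, 0.68 and 0.642 FPKM in *kaku4*. The ratio of *WRKY29* to *WRKY22* did not overlap, with 0.269, 0.23 and 0.31 in WT and 0.342, 0.432 and 0.334 in *kaku4*. Ratios of *WRKY40* to *WRKY60*, *WRKY41* to *WRKY53* and *WRKY13* to *WRKY12* were also without overlap.

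The remaining listed relatives were not called. *WRKY6* had 9.2, 7.59 and 7.94 FPKM in WT and 12.8, 12.4 and 14.3 FPKM in *kaku4*. *WRKY11* had 8.23, 11.5 and 13.5 FPKM in WT and 15.9, 21.3 and 18.1 FPKM in *kaku4*, and *WRKY38* had 26.2, 24 and 20.8 FPKM in WT and 31.9, 27 and 35.1 FPKM in *kaku4*. In these 3 genes the genotypes did not overlap. *WRKY17* had 8.84, 14.1 and 13.2 FPKM in WT and 9.81, 12.9 and 12.7 FPKM in *kaku4*. *WRKY28* had 2.06, 2.2 and 1.74 FPKM in WT and 0.971, 1.91 and 2.28 FPKM in *kaku4*, and *WRKY30*, an early stress gene, had 1.77, 1.84 and 2.44 FPKM in WT and 1.93, 3.71 and 3.37 FPKM in *kaku4*. These 3 overlapped. The group I relatives *WRKY3* and *WRKY4*, with roles in resistance to necrotrophs, had 4.33 to 5.29 and 4.76 to 6.5 FPKM in WT and 6.35 to 6.43 and 8.03 to 9.74 FPKM in *kaku4*, at log2 fold changes of 0.42 and 0.59. Both were higher without overlap as deposited, and at 0.06 and 0.18 with the length trend removed.

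The other 11 tested members, none of them called, lay between -0.41 for *WRKY65* and 0.85 for *WRKY72*. *WRKY2*, which acts in pollen and the zygote, was at 0.45 (adjusted p = 0.0341) and at -0.38 (adjusted p = 0.0747) with the length trend removed. *WRKY44*, known as *TTG2* for its role in trichomes and the seed coat, was at 0.04, and *WRKY43* at 0.52 with 0 FPKM listed in a library of each genotype. *WRKY58* was at 0.22, *WRKY7* at -0.31, and the subgroup IIe genes *WRKY14*, *WRKY27*, *WRKY35* and *WRKY69* at 0.31, 0.28, -0.13 and -0.21. Of these 11 genes *WRKY2* and *WRKY7* had genotypes without overlap.

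**Figure D4:**
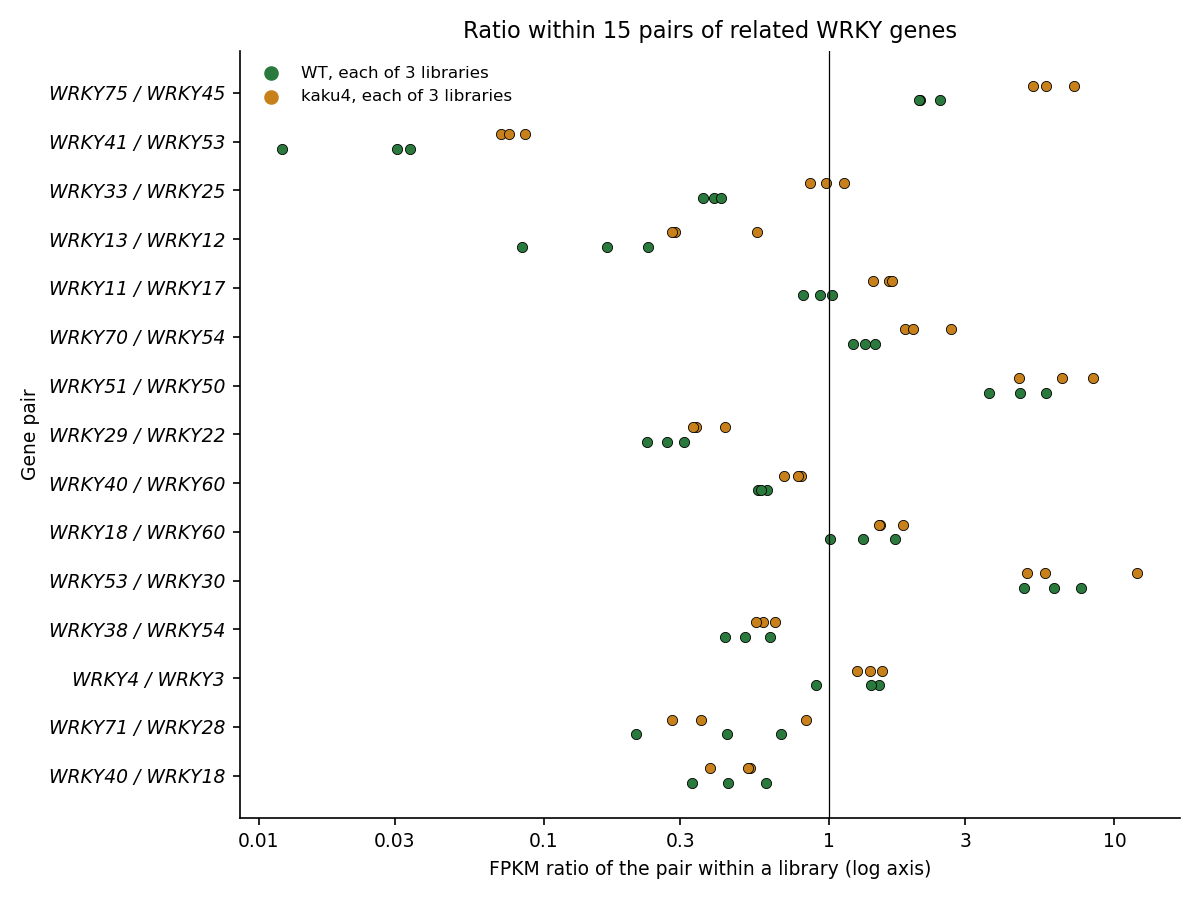
FPKM ratio within 15 pairs of related *WRKY* genes, on a log axis, with a point for each of 3 WT and 3 *kaku4* libraries and the gene of larger fold change as numerator. In 8 pairs the *kaku4* points lie clear of the WT points, among them *WRKY75* over *WRKY45* (2.07 to 2.45 in WT, 5.2 to 7.23 in *kaku4*), and in 7 pairs they overlap.

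W-box matches in member promoters were set beside the calls. Of 20 tested members with at least 1 match 7 were upregulated (35%), with a median of 0.75. Of 36 tested members without a match 5 were upregulated (13.9%) and 1 was downregulated, with a median of 0.43, and of all genes 16.4% were upregulated. With the length trend removed the counts called higher were 7 of 20 (35%) and 7 of 36 (19.4%), beside 7.77% of all genes. Members with 2 or more matches included *WRKY33*, *WRKY41* and *WRKY32* among the upregulated genes, and *WRKY15* and *WRKY17*, at -0.25 and -0.01, among those that were not. *WRKY30* held 3 matches. The difference between members with and without a match was not tested. The share called among all genes with a match in the same window was not computed.

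Genes that act with the WRKY proteins were counted in 3 lists. Among 34 VQ proteins, small cofactors named for a valine and glutamine motif, of which several bind WRKY domains, 30 were tested, 2 were upregulated and 2 downregulated (6.67% each way, against 16.4% and 11.5% of all genes), and the median was 0.09, or 0.46 with the length trend removed. The upregulated genes were *VQ8*, with 0.633, 0.709 and 1.01 FPKM in WT and 11.4, 9.33 and 11.1 FPKM in *kaku4* (log2 fold change 3.62, SE 0.21, adjusted p = 3.1e-05), and *VQ30* (1.69, adjusted p = 0.0122). The downregulated genes *VQ20* and *VQ25*, at -1.14 and -1.11, were not called with the length trend removed, where 5 VQ genes were called higher and 0 lower, against 7.77% and 5.21% of all genes. *SIB1*, a coactivator of WRKY33, had overlapping values of 131 to 195 FPKM in WT and 159 to 197 in *kaku4* (0.10). *MKS1*, the link between MPK4 and WRKY33, was at -0.66 (adjusted p = 0.00852) and at 0.02 with the length trend removed. *JAV1*, a jasmonate-degraded repressor of defence that binds WRKY51, was at 0.58 (adjusted p = 0.0202) and was called at 1.07 with the trend removed.

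Of 13 protein kinases known to act on WRKY proteins, all tested, 1 was upregulated (7.69%, against 16.4% of all genes) and 0 were downregulated by limma, with a median of 0.37. At an unadjusted p under 0.05, 7 kinase genes were higher and 1, *MPK4*, was lower. The share of all genes at that looser rule was not computed. By the adjusted p alone 6 kinase genes were higher and 1 lower, against 28.6% and 28.3% of all genes. After the length correction 0 kinase genes passed the call rule upward and 1 downward, against 7.77% and 5.21% of all genes. *CPK6*, a calcium-dependent kinase, was the gene called, at 1.18 (SE 0.16, adjusted p = 7.4e-04), and was at 0.53 with the length trend removed. *MPK3*, a kinase of WRKY33, had 42.7, 39.6 and 36.5 FPKM in WT and 58.7, 76.8 and 63.3 FPKM in *kaku4* (0.73, adjusted p = 0.00261), while *MPK6*, its partner in that role, was at 0.25 (adjusted p = 0.159). *MPK4*, which holds WRKY33 in a complex through MKS1, had 83.9, 84.3 and 85 FPKM in WT and 51.8, 44.7 and 51 FPKM in *kaku4*. Its value of -0.78 (SE 0.11, adjusted p = 9.4e-04) missed the fold threshold, and it was called lower at -1.53 with the length trend removed.

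Of 13 genes known as direct or genetic targets of WRKY proteins, all tested, 9 were upregulated (69.2%, against 16.4% of all genes) and 1 downregulated (7.69%, against 11.5%), their median being 1.21. The count is a description and no support for a link to the family, since the list was chosen with earlier results of these data known. With the length trend removed 7 were called higher and 1 lower, *NPR1* and *SAG101* having dropped out, with a median of 1.05, where 7.77% and 5.21% of all genes were called. *FRK1*, a receptor kinase gene downstream of WRKY22 and WRKY29, had 0.125, 0.269 and 0.324 FPKM in WT and 1.69, 3.06 and 2.32 FPKM in *kaku4* (2.87, SE 0.35, adjusted p = 4.9e-04). *SAG12*, a cysteine protease gene of senescent leaves, had 15.3, 20.9 and 20.9 FPKM in WT and 104, 107 and 116 FPKM in *kaku4* (2.53, SE 0.15, adjusted p = 3.5e-05). *PAD3*, the last enzyme of camalexin synthesis and a target of WRKY33, had 5.58, 5.59 and 5.71 FPKM in WT and 25.3, 27.7 and 25.8 FPKM in *kaku4* (2.20, SE 0.12, adjusted p = 2.6e-05). In each of these genes all *kaku4* libraries stood at more than 3 times the highest WT library.

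*ICS1*, the main enzyme of salicylic acid synthesis and a target of WRKY28 and WRKY46, had 8.37, 9.61 and 8.97 FPKM in WT and 21.8, 25.5 and 21.9 FPKM in *kaku4* (1.35, SE 0.13, adjusted p = 2.5e-04). *PHO1*, which WRKY6 and WRKY42 repress, was at 0.95 (adjusted p = 0.00507) and at 0.14 with the length trend removed. With replicates 2 and 3 only, *PHO1* was called higher at 1.12 (limma adjusted p = 0.00761). The downregulated gene was *PHT1;1*, a phosphate uptake transporter, at -1.19 (SE 0.42, adjusted p = 0.0386), with 0.671 to 0.832 FPKM in WT and 0.109 to 0.482 in *kaku4*. It has near-identical neighbours in its gene family, so its value is uncertain, and with replicates 2 and 3 only it was -0.70 and not called.

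**Figure D5:**
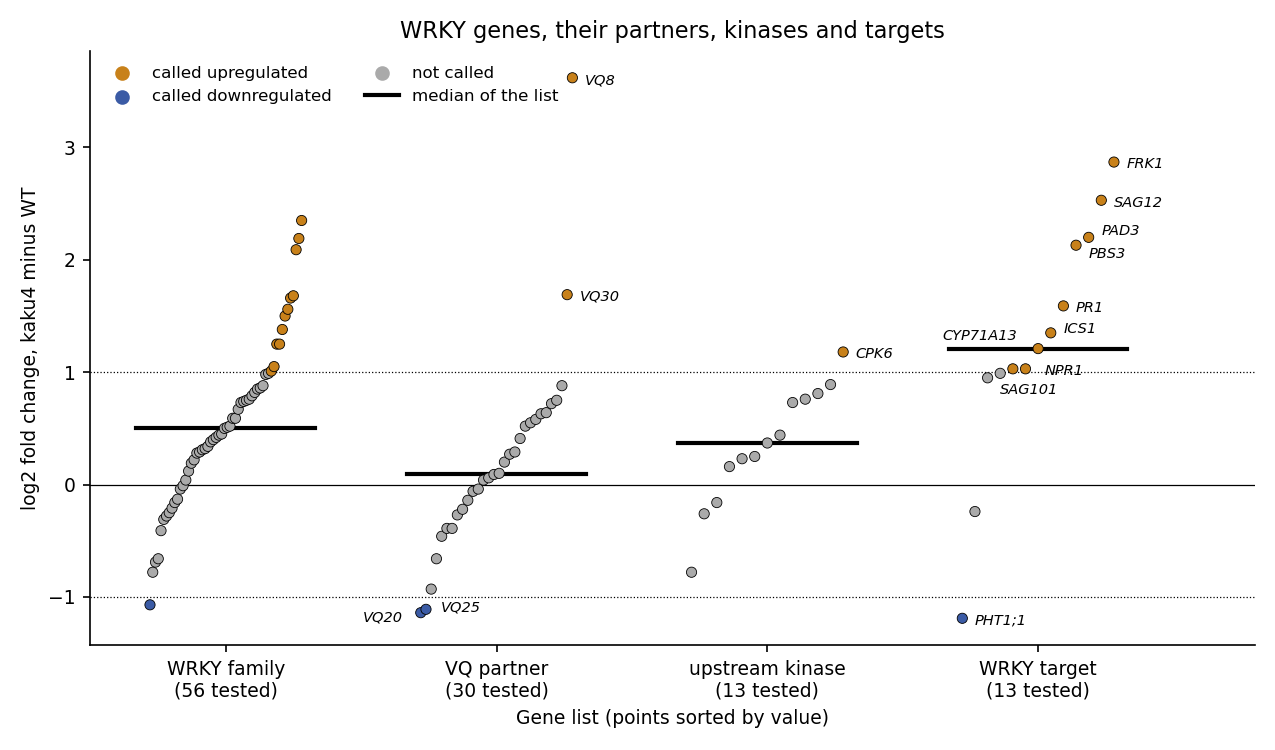
Log2 fold change (*kaku4* minus WT) of 56 *WRKY* genes and of the tested genes in 3 lists, one point per gene sorted by value within a list, with a line at each median and dotted lines at 1 in either direction. The medians are 0.51 for the *WRKY* genes, 0.09 for the VQ genes, 0.37 for the kinases and 1.21 for the targets, and *VQ8* is the highest point at 3.62.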

How the data were processed

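Per the labels and the study's methods, RNA from 6-week-old leaves was sequenced with 150-base paired reads in 3 WT and 3 *kaku4* libraries, reads were aligned by the authors to TAIR10 with TopHat2 2.0.9, and FPKM values were calculated with Cufflinks, both at default settings, which treat reads as unstranded. The annotation was not given in the sources used here. The deposited FPKM values were used as they stand, and 1442 of 24492 loci without a value were left out. In the automatic unit check the deposited columns went under a general unit (other), because of marks for missing values. The H3K27me3 ChIP samples were not analysed here.

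From these values log2(FPKM + 0.1) was computed, the 20618 genes averaging 0.1 FPKM or more were kept, and *kaku4* was compared with WT by limma (version 3.58.1, R 4.3.3), with a trended prior variance and Benjamini-Hochberg adjustment over all of them. Fold changes on this scale understate the change of low genes. The p-values measure the spread between these libraries, which share an estimate of variance across genes. The length trend was removed in each library by lowess (span 0.4), which also removes true change that follows length. Lengths, promoters, coding sequences and overlaps came from the RefSeq annotation of TAIR10.1, matched by locus, with Python 3.11.15 and Biopython 1.88. All 60 members matched. The promoter sequence of a further called member is not reported here. Identity of relatives was computed on coding bases, not on protein. The members, their groups, the lists and the tests were chosen with earlier results of these data known. Any member could be named. Values per library are given for called members, the 5 of highest mean and members of the listed pairs, and of each list for the called genes of largest change and a few chosen partners. The values of *WRKY47* and of genes overlapping a member were added after they were seen. Alternatives were another pseudocount, filter, scaling, length or GC correction, replicate block, call rule and sets of libraries.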

Additional observations from a re-analysis of the deposited data

How the results depend on the processing

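With a pseudocount of 1, 4 of 56 members were called higher and 0 lower. Of 20618 genes 1743 were called higher and 1674 lower, 3417 in all in place of 5751. The share of members called higher was then slightly below that of all genes. *WRKY75*, *WRKY33* and *WRKY1* kept their call in all 20 alternatives run for them, and *WRKY20* lost it in 10. Scaling mattered for counts. With libraries centred, the median of all genes was -0.19 and 2302 genes were called higher and 3846 lower, in place of 3380 and 2371, while the members stood at 10 higher and 1 lower with a median of 0.31. With organelle genes left out and the libraries rescaled, the median of all genes was 0.48, 6201 genes were called higher and 423 lower, 26 members were higher and 0 lower, and the member median was 0.98. No called member changed sign, but of members that were not called 8 did so with the length trend removed (*WRKY2*, *WRKY15*, *WRKY17*, *WRKY19*, *WRKY22*, *WRKY44*, *WRKY69* and *WRKY71*) and 9 with the organelle rescaling. The cause was not tested.

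With the length trend removed, 14 members were called higher and 2 lower, beside 1602 and 1075 of all genes, 2677 in all. With the trend and replicate 1 of both genotypes removed, an alternative chosen after seeing the data, 17 members were higher and 3 lower. Of all genes 1776 were then called higher and 1298 lower, 3074 in all. With replicates 2 and 3 alone 13 members were higher, 11 of them among the 12, beside 3827 of all genes. *WRKY18* and *WRKY72* were added, at 1.01 and 1.15, and *WRKY8* was lost. With a GC trend removed 13 members were called higher and 0 lower, beside 2577 and 2054 of all genes. Without a fold threshold 27 members were higher and 4 lower, beside 5905 and 5844 of all genes, 11749 in all. Leaving out a library at a time, 8 to 13 members were called higher, 0 to 1 lower and 4264 to 6761 genes in all, and the member median was 0.42 to 0.60. Without *kaku4* replicate 2 the count of members called higher was 8 of 56, beside 2648 of 20618 genes, shares close to each other, and *WRKY23* lost its call.

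Replicate numbers paired the libraries in part. Deviations from the genotype mean correlated at 0.305, the highest value, between replicate 1 of both genotypes. Replicate 1 of a genotype against replicate 2 or 3 of the other gave -0.146 to -0.225. Same-numbered libraries 2 and 3 correlated at 0.0821 and 0.00608, less than WT 3 with *kaku4* 2 (0.214) or WT 2 with *kaku4* 3 (0.195). With the number as a block, 12 members were higher and 1 lower, as without it, beside 3410 and 2481 of all genes, 5891 in all. With the block and the length trend removed 14 were higher and 2 lower, beside 1640 and 1100 of all genes, 2740 in all.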
